A study of Mus musculus with 4 samples.

Results

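Chemokine guidance genes were examined in sorted *Sst*-lineage interneurons with and without *Dnmt1*: the receptor genes *Cxcr4* and *Ackr3*, the ligand genes *Cxcl12* and *Cxcl14*, and the beta-arrestin genes *Arrb1* and *Arrb2*. These 6 genes were taken by their symbols from 56883 genes in the deposited table, with earlier results of these data known. All 6 were among the 14323 genes that reached a mean of 10 normalized counts, the level from which genes were tested. Total RNA had been sequenced from tdTomato-positive cells that were isolated by FACS from the basal telencephalon at E14.5, with 2 libraries per genotype, each made from cells pooled over several embryos. Control embryos were *Sst-Cre/tdTomato* and *Dnmt1* KO embryos *Sst-Cre/tdTomato/Dnmt1 loxP2*, so that both groups carried the Cre driver and the reporter. Cre is driven from the *Sst* gene and acts in postmitotic SST+ cells, the sexes were not told apart, and pooling hides how single embryos differ. The comparison asked how loss of DNMT1, the DNA methyltransferase that maintains CpG methylation, changes the RNA of these genes in migrating interneurons.

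Interneurons of the medial ganglionic eminence travel from the basal telencephalon to the cortex in streams, and CXCL12, made by meninges and by cells along the route, is a known attractant that keeps them in those streams. CXCR4 is the receptor of CXCL12 that signals through Gi proteins and beta-arrestins, whereas ACKR3 (also named CXCR7) binds CXCL12, recruits beta-arrestins, couples poorly to G proteins and takes CXCL12 up from the surroundings. CXCL14 is a chemokine of the same class whose receptor is less settled. The beta-arrestins ARRB1 and ARRB2 bind activated receptors, end their G protein signalling and carry them to endocytosis.

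The genes lie on 5 chromosomes, given here in GRCm39 with the GENCODE annotation. *Cxcr4* (ENSMUSG00000045382) is on chromosome 1 at chr1:128515936-128520044 on the minus strand, and *Ackr3* (ENSMUSG00000044337) on the same chromosome at chr1:90131689-90144473 on the plus strand. *Cxcl12* (ENSMUSG00000061353) is at chr6:117144945-117158328 on the plus strand and *Cxcl14* (ENSMUSG00000021508) at chr13:56436352-56444603 on the minus strand. *Arrb1* (ENSMUSG00000018909) spans chr7:99184470-99256620 and *Arrb2* (ENSMUSG00000060216) chr11:70323381-70333488, both on the plus strand. All values are normalized counts over the whole gene, and reads of *Arrb1* could include some of the antisense genes *Gm44914* and *Gm34172* that overlap it, since the strand setting of the counting was not given in the sources used here. *Gm44914* had between 0 and 1.97 normalized counts in the 4 libraries. *Arrb2* overlaps the antisense gene *Gm72715* in the same way.

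Because DNMT1 acts on cytosines of CpG dinucleotides, the promoter windows of the receptors and ligands are shown with each CpG in capitals. The windows hold 250 bases before and 50 after the start that RefSeq annotates, read 5′ to 3′ on the strand of the gene, and their positions are those of GRCm38.p6, not of the build above. The RefSeq table held windows for 4 of the 6 genes, and these starts need not be the ones used in these cells.
Cxcr4: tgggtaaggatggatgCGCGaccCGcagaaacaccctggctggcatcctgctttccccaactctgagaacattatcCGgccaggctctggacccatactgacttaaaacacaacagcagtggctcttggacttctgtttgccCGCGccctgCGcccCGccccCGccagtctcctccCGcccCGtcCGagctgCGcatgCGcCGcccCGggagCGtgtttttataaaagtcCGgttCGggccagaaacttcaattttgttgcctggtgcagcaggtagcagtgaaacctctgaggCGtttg
Ackr3: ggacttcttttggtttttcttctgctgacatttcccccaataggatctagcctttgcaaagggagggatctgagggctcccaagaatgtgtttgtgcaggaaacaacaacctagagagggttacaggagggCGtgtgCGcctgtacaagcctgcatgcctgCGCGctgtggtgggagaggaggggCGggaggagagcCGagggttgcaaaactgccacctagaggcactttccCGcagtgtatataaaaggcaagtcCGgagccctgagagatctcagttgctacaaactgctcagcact
Cxcl12: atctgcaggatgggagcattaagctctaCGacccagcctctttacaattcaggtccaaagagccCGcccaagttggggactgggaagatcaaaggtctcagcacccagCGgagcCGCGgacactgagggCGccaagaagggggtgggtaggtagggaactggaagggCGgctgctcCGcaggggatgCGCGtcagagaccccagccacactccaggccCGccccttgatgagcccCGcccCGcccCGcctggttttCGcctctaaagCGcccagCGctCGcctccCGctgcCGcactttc
Cxcl14: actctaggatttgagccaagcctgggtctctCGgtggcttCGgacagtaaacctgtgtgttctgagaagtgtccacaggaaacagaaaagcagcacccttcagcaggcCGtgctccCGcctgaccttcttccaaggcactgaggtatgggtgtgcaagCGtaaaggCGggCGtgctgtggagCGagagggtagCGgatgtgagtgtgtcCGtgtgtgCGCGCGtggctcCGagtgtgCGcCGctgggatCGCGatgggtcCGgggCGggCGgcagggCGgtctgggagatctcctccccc
The *Cxcr4* window (chr1:128592250-128592549, minus strand) held 20 CpG and 59.3% G and C. The *Ackr3* window (chr1:90203730-90204029, plus strand) was the poorest of the 4, with 8 CpG, or 0.374 of the number that its base composition gives. The windows of *Cxcl12* (chr6:117168285-117168584, plus strand) and *Cxcl14* (chr13:56296502-56296801, minus strand) held 20 and 22 CpG. Across 32841 RefSeq windows of the same length the median was 7 CpG and the upper quartile 20. The ratio of observed to expected CpG was 0.767 for *Cxcr4*, 0.639 for *Cxcl12* and 0.772 for *Cxcl14*, against a median of 0.384 over all windows. The receptor windows differed from each other in CpG content. Any relation between the CpG content of the windows and the RNA of these genes was not tested. On either strand, GGGCGG, the GC box, was found 3 times for *Cxcr4*, 1 time for *Ackr3*, 5 times for *Cxcl12* and 3 times for *Cxcl14*, and 35.7% of all windows held it. TAATTA, the core bound by homeodomain proteins, and CACCTG, an E-box bound by Zeb factors, were in 0 of the 4 windows, against 5.29% and 20.2% of all windows. Copies of the GC box that share bases, as in the *Cxcl12* and *Cxcl14* windows, were each counted, and DNA methylation of the windows was not analysed here.

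Both CXCL12 receptor genes were higher in *Dnmt1* KO than in control libraries. *Ackr3* had 436 and 406 normalized counts in control libraries 1 and 2 and 697 and 665 in *Dnmt1* KO libraries 1 and 2. Every *Dnmt1* KO value lay above every control value, and the libraries of a genotype differed by at most 1.07-fold. The mean rose from 421 ± 20.8 (SD, n = 2) to 681 ± 22.6 (SD, n = 2), a 1.62-fold change with a 95% interval of 1.42 to 1.84. By limma, with Benjamini-Hochberg adjustment over the 14323 genes, the log2 fold change of *Ackr3* was 0.69 (SE 0.086) at an adjusted p of 5.22e-05. In fits that left out 1 library, limma's adjusted p was at most 0.00103. *Ackr3* was thus the gene of the 6 with the smallest adjusted p.

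*Cxcr4* was counted at 77.9 and 92.9 in control libraries and at 130.2 and 125 in *Dnmt1* KO libraries, from 87, 91, 132 and 114 reads. The genotypes did not overlap, but the control libraries differed by 1.19-fold. The mean rose from 85.4 ± 10.6 (SD, n = 2) to 127 ± 3.99 (SD, n = 2), and the log2 fold change was 0.58 with a standard error of 0.18 (limma's adjusted p = 0.0349). On the linear scale this was 1.49-fold, with a 95% interval from 1.15 to 1.94. The call rested on all 4 libraries together. Limma's adjusted p was 0.188 without control replicate 1, 0.0531 without control replicate 2, 0.109 without *Dnmt1* KO replicate 1 and 0.0647 without *Dnmt1* KO replicate 2, while the log2 fold change stayed between 0.45 and 0.70. DESeq2's Wald test on the recovered reads gave the same 0.58 and an adjusted p of 0.293. A rise of *Cxcr4* was therefore seen in size under each of these fits, but its side of the threshold was not stable.

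The ligand genes had the lowest levels of the 6. *Cxcl14* fell from 52.8 and 47.0 normalized counts in control libraries to 22.7 and 28.4 in *Dnmt1* KO libraries, without overlap. These values rest on 59, 46, 23 and 26 reads, so that counting error alone is wide. Their means were 49.9 ± 4.13 and 25.5 ± 4.05 (SD, n = 2 each). On the log2 scale the change was -0.94 (SE 0.29) at an adjusted p of 0.0375 by limma, which corresponds to a level 1.92-fold lower, with a 95% interval of 1.25 to 2.97. It was the largest change of the 6 in size. Limma's adjusted p was 0.0252 without *Dnmt1* KO replicate 2, but 0.189 without control replicate 1, 0.119 without control replicate 2 and 0.124 without *Dnmt1* KO replicate 1. DESeq2 gave a log2 fold change of -0.97 and an adjusted p of 0.298.

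*Cxcl12* differed less. It had 78.7 and 75.5 normalized counts in control libraries and 67.1 and 65.6 in *Dnmt1* KO libraries. The genotypes did not overlap, but a difference of this size was within the error that limma assigns to genes of this level (log2 fold change -0.22, standard error 0.20, limma's adjusted p = 0.531). The 95% interval of the log2 fold change, from -0.65 to 0.22, leaves room for a level down to 1.57-fold lower or up to 1.17-fold higher. *Cxcl12* was not called in limma's fit or in any of 16 alternative fits.

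Of the beta-arrestin genes, *Arrb1* rose. Its normalized counts were 670 and 683 in control libraries and 842 and 942 in *Dnmt1* KO libraries, with all *Dnmt1* KO values above the control values. The control mean was 677 ± 9.0 (SD, n = 2) and the *Dnmt1* KO mean 892 ± 70.3 (SD, n = 2). Its log2 fold change was 0.40, with 0.079 as standard error and 0.00265 as limma's adjusted p, with a 95% interval from 1.17-fold to 1.48-fold. With each library left out, it lay between 0.32 and 0.48 with an adjusted p of at most 0.0271 from limma.

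*Arrb2* was counted at 258 and 294 in control libraries and at 226 and 239 in *Dnmt1* KO libraries. The lowest control value and the highest *Dnmt1* KO value lay closer to each other than the control libraries did, and *Arrb2* did not pass the test (log2 fold change -0.24, standard error 0.12, 95% interval -0.50 to 0.010, limma's adjusted p = 0.185). Correcting each library for the dependence of counts on transcript length and GC content moved its log2 fold change to -0.13. For *Ackr3*, *Cxcr4*, *Arrb1* and *Cxcl14*, the same step gave 0.73, 0.64, 0.45 and -0.88.

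**Figure D1:**
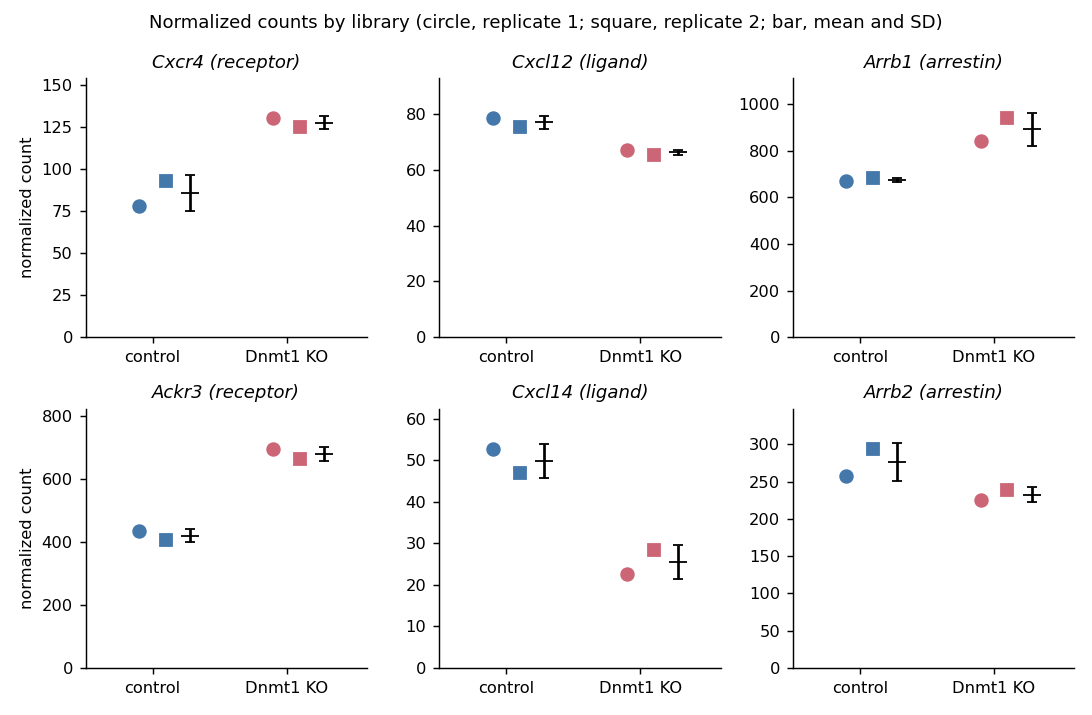
Normalized counts (y axes from 0) of the 6 genes in each library, with control in blue and *Dnmt1* KO in red, circles for replicate 1, squares for replicate 2 and black bars for the mean with its SD (n = 2). *Cxcr4*, *Ackr3* and *Arrb1* sit higher in both *Dnmt1* KO libraries, *Cxcl14* sits lower at 22.7 and 28.4, and *Cxcl12* and *Arrb2* lie slightly lower.

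Limma thus called 4 of the 6 genes, 3 higher and 1 lower. Among all genes tested, 17.3% were called, 8.3% higher and 8.99% lower. The genotypes did not overlap for 6 of the 6 genes, which also held for 57.4% of all genes tested. In size, the log2 fold change had a median of 0.49 for the 6 genes and 0.21 for all genes tested. On recovered reads, DESeq2 called 9.17% of the genes it tested, and among the 6 it called *Ackr3* and *Arrb1* (adjusted p = 1.45e-05 and 0.0113 from DESeq2). Without its variance trend limma called 0 genes of the whole table, with 3339 at an unadjusted p below 0.05, and gave adjusted p of 0.0710 for *Ackr3* and 0.145 for *Arrb1*.

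**Figure D2:**
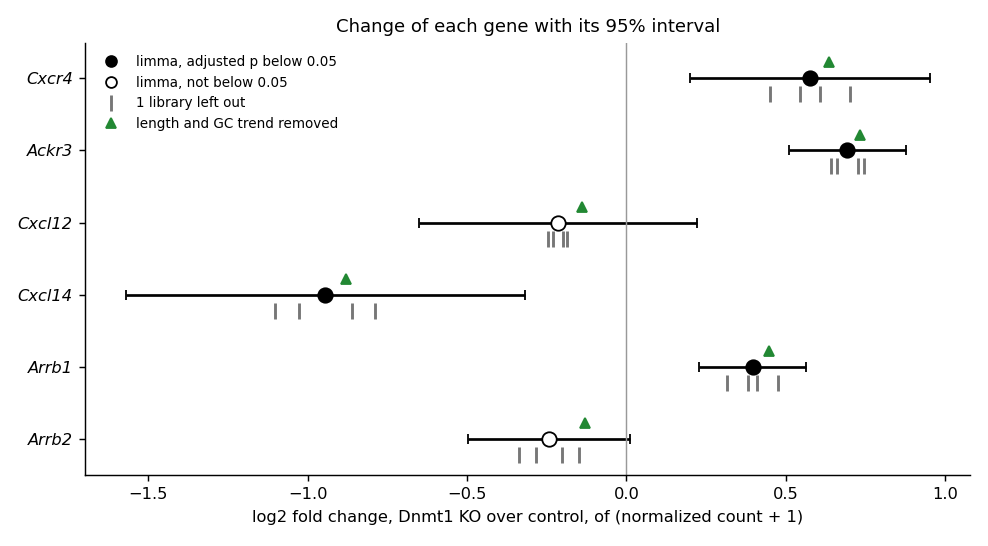
Log2 fold change of each gene (x axis, *Dnmt1* KO over control, from normalized count + 1) with its 95% interval from limma, filled where limma's adjusted p was below 0.05, with grey ticks for fits without 1 library and green triangles after the length and GC correction. *Ackr3* at 0.69 and *Arrb1* at 0.40 have the narrowest intervals away from 0, *Cxcl14* at -0.94 has the widest, and the intervals of *Cxcl12* and *Arrb2* include 0.

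Levels of different genes were compared per kilobase of the annotated canonical transcript. In control libraries, *Arrb2* stood at 145 ± 13.5 (SD, n = 2) and *Ackr3* at 137 ± 6.77 (SD, n = 2) normalized counts per kilobase, and these neighbours did not differ beyond their spread. *Arrb1* followed at 84.8 ± 1.13 and *Cxcr4* at 46.9 ± 5.84 (SD, n = 2 each), both apart from their neighbours by more than the spread. *Cxcl14* at 17.1 ± 1.41 and *Cxcl12* at 13.6 ± 0.399 (SD, n = 2 each) came last. Among 12278 protein-coding genes tested, the control level per kilobase was at percentile 77.4 for *Arrb2*, 76.0 for *Ackr3*, 63.1 for *Arrb1*, 45.7 for *Cxcr4*, 20.8 for *Cxcl14* and 16.7 for *Cxcl12*. *Ackr3* RNA was thus more abundant than *Cxcr4* RNA in the control libraries, and the ligands were the least abundant. These are levels of whole libraries, which also held marker RNA of other cell types, and they are not levels of interneurons alone.

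The order differed in *Dnmt1* KO libraries. *Ackr3* came first at 221 ± 7.34 normalized counts per kilobase (SD, n = 2), above *Arrb2* at 122 ± 4.98 and *Arrb1* at 112 ± 8.82 (SD, n = 2 each). The libraries of *Arrb2* (119 and 126) and *Arrb1* (106 and 118) nearly met, so that these neighbours cannot be ordered beyond their spread. *Cxcr4* had 69.9 ± 2.19 (SD, n = 2). The ligands changed places, with *Cxcl12* at 11.8 and 11.6 and *Cxcl14* at 7.76 and 9.72 in *Dnmt1* KO libraries 1 and 2, against 13.9 and 13.3 for *Cxcl12* and 18.1 and 16.1 for *Cxcl14* in the control libraries.

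Ratios within a library do not depend on its size factor and show whether paired genes moved by unequal amounts. The ratio of *Ackr3* to *Cxcr4* normalized counts was 5.60 and 4.37 in control libraries and 5.36 and 5.34 in *Dnmt1* KO libraries. The *Dnmt1* KO values lay within the control range, and the log2 difference of 0.12 was smaller than the pooled SD of 0.18 (exact two-sided permutation p = 1). Without control replicate 2, that difference was -0.060. The receptors therefore moved by amounts that these libraries did not tell apart, which does not show that the amounts were equal.

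The ratio of *Arrb2* to *Arrb1* was 0.385 and 0.430 in control libraries and 0.268 and 0.254 in *Dnmt1* KO libraries, so that every *Dnmt1* KO library was lower. The log2 difference was -0.64, with a pooled SD of 0.090 (exact permutation p = 0.33, the smallest that 2 libraries against 2 can give). The ratio of *Cxcl12* to *Cxcl14* was 1.49 and 1.61 in control and 2.96 and 2.31 in *Dnmt1* KO libraries, a log2 difference of 0.73 with a pooled SD of 0.18 and the same smallest permutation p of 0.33. Permutation of 4 libraries cannot reach 0.05 for any of the 3 ratios.

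**Figure D3:**
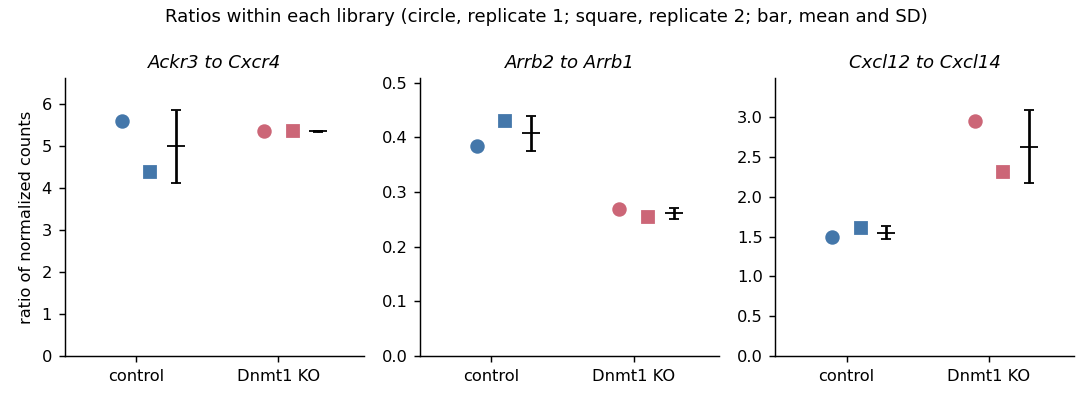
Ratio of normalized counts of paired genes in each library (y axes from 0), with control in blue and *Dnmt1* KO in red, circles for replicate 1, squares for replicate 2 and black bars for the mean with its SD (n = 2). The *Ackr3* to *Cxcr4* ratio overlaps between genotypes, while *Arrb2* to *Arrb1* is lower and *Cxcl12* to *Cxcl14* higher in both *Dnmt1* KO libraries.

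These are bulk libraries, in which fewer cells of a type and less RNA per cell cannot be told apart. Marker genes of several cell types moved with genotype. The markers counted here as risen or higher, and as fallen or lower, are those called by limma, which called 17.3% of all genes tested. The targeted gene, *Dnmt1*, had 2238 and 2341 normalized counts in control and 2164 and 2210 in *Dnmt1* KO libraries (log2 fold change -0.066, limma's adjusted p = 0.461), while reads of transcripts with and without the deleted exons are not separated in such a gene-level count. Summed over 10 markers of SST+ interneurons, of which 9 rose, normalized counts were 18352 and 18771 in control and 27758 and 28104 in *Dnmt1* KO libraries, and *Sst* had the highest mean. All 8 tested endothelial markers fell, and their list summed to 570 and 569 in control and 223 and 240.4 in *Dnmt1* KO libraries. Pericyte and smooth muscle markers summed to 447 and 435 against 237 and 225 (3 of 5 tested fell), and meningeal fibroblast markers to 312 and 267 against 148 and 156 (3 of 5 tested fell). Microglia and macrophage markers summed to 146 and 128 against 60.2 and 69.9 (2 of 4 tested fell), and blood cell markers to 2610 and 2433 against 587 and 592 (8 of 8 tested fell). Radial glia markers went from 10975 and 11088 to 6615 and 6782, with 7 of 10 lower and 1 higher, and Cajal-Retzius markers from 771 and 878 to 407 and 471, with 5 of 8 lower. Of 10 markers of intermediate progenitors and excitatory neurons, 7 fell and 1, *Bcl11b*, rose. The full list summed to 5954 and 5888 in control and 5928 and 5775 in *Dnmt1* KO libraries. Without *Bcl11b*, its most abundant member, it summed to 2605 and 2572 in control and 1332 and 1262 in *Dnmt1* KO libraries. Markers of interneurons of the caudal ganglionic eminence summed to 3843 and 3876 against 3599 and 3408, with 1 higher and 2 lower of 7 tested. Apart from 1 gene of the last list, *Vip*, every marker had at least 1 read. Without control replicate 1 or without control replicate 2, limma called 4 of the 8 endothelial markers, 1 of the 3 meningeal and 1 of the 3 caudal eminence markers called above, and both microglial calls were lost. The caudal eminence list also kept 1 call without *Dnmt1* KO replicate 2.

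Set against these sums, in a comparison chosen after the values were seen, the receptors stayed level with the SST+ interneuron markers. Of these markers, *Lhx6*, *Sox6*, *Satb1* and *Dlx5* also belong to the transcription factor list below. The paper names them among genes with raised RNA and changed DNA methylation in *Dnmt1* KO cells. The marker sum is therefore not a measure of SST+ cell content alone. *Cxcr4* had 4.24 and 4.95 counts per 1000 summed marker counts in control and 4.69 and 4.43 in *Dnmt1* KO libraries. *Ackr3* had 23.7 and 21.6 in control and 25.1 and 23.7 in *Dnmt1* KO libraries, so that the genotypes overlapped for both. *Arrb1*, at 36.5 and 36.4 against 30.3 and 33.5, rose by less than the marker sum. *Arrb2* was at 14.0 and 15.7 against 8.14 and 8.51 on this scale.

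Relative to the full sums of 3 of the 10 marker lists, *Cxcl14* overlapped between genotypes. The full sum of intermediate progenitor and excitatory neuron markers includes *Bcl11b*, its most abundant member, which rose. Without *Bcl11b* that sum fell, from 2605 and 2572 in control to 1332 and 1262 in *Dnmt1* KO libraries. *Cxcl14* was not set against this smaller sum, so these values do not set *Cxcl14* apart from the remaining markers of that list. *Cxcl14* had 169 and 176 counts per 1000 of the meningeal fibroblast markers in control and 153 and 182 in *Dnmt1* KO libraries. Per 1000 of the pericyte and smooth muscle markers it had 118 and 108 against 95.8 and 126, and per 1000 of the Cajal-Retzius markers 68.4 and 53.5 against 55.7 and 60.3. Per 1000 counts of SST+ interneuron markers it had 2.88 and 2.50 against 0.817 and 1.01. *Cxcl12*, whose own difference did not pass the test, had 138 and 133 counts per 1000 of the endothelial markers in control and 301 and 273 in *Dnmt1* KO libraries. The part of these marker changes in the differences of the 6 genes, or of the pathway genes below, was not tested.

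**Figure D4:**
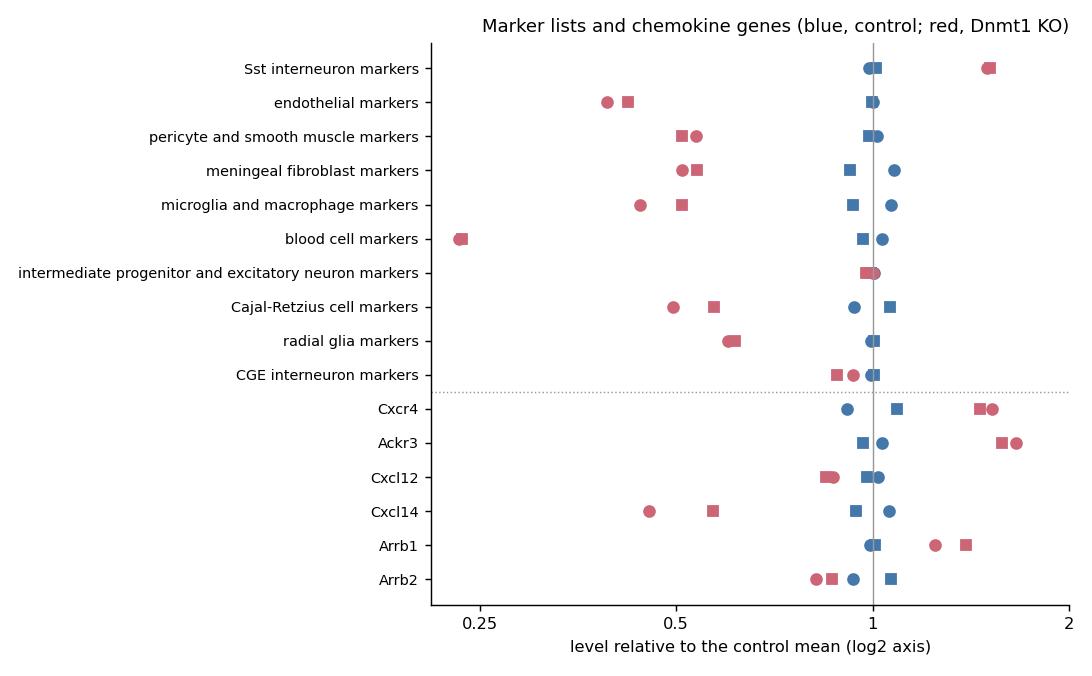
Summed normalized counts of each marker list (above the dotted line) and normalized counts of the 6 genes (below it), each divided by its control mean and drawn on a log2 axis, with control in blue, *Dnmt1* KO in red, circles for replicate 1 and squares for replicate 2. *Cxcr4* and *Ackr3* lie near the SST+ interneuron markers on the right, and *Cxcl12* and *Arrb2* lie just left of the control mean. *Cxcl14* lies further left, near the pericyte, meningeal fibroblast, microglia and Cajal-Retzius markers. Sums are of full lists, with *Bcl11b* included.

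Other chemokines and their receptors were scarce. Of 58 further ligand and receptor genes listed, 38 had 0 reads in all 4 libraries, which also held for 50.7% of all genes in the table, and 5 were tested. Limma called 0 of the 5, with 1 at an unadjusted p below 0.05, and edgeR, limma-voom and DESeq2 called 0 as well. *Ccl27a* was the most abundant ligand of these, at 171 and 192 normalized counts in control and 207 and 180 in *Dnmt1* KO libraries, with overlap. *Ackr1*, a decoy receptor known from erythroid cells and venules, was the most abundant receptor, at 50.1 and 41.9 against 43.4 and 60.1. *Cxcr4* and *Ackr3* thus had higher normalized counts than every other chemokine receptor gene listed in these libraries.

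Around CXCR4 and ACKR3, 7 lists of 172 pathway genes were followed, the 58 above among them. Of these, 102 were tested, and limma called 12 higher and 15 lower, or 26.5% against the 17.3% of all genes. Their median log2 fold change was 0.010. DESeq2 called 12 of the 27 and edgeR all 27, while 9 were called with each library left out in turn, 15 without control replicate 1, 14 without control replicate 2, 17 without *Dnmt1* KO replicate 2 and 22 after the length and GC correction.

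Among 13 tested partners of CXCL12 and its receptors, 3 rose and 3 fell by limma, a share of 46.2% against the 17.3% of all genes. DESeq2 called 3 of these 6, and 9.17% of all the genes it tested. *Sulf1*, whose product removes sulfate groups from heparan sulfate, the glycan that holds CXCL12 at cell surfaces, went from 156 and 133 normalized counts in control to 58.2 and 62.3 in *Dnmt1* KO libraries (log2 fold change -1.24, limma's adjusted p = 0.000262). *Hs2st1* and *Ndst1*, which add such groups, rose by 0.35 and 0.26 on the log2 scale, and *Sdc3*, a heparan sulfate proteoglycan, by 0.22. The other sulfatase gene listed, *Sulf2*, was more abundant than *Sulf1*, at 924 and 906 in control and 962 and 1033 in *Dnmt1* KO libraries. It was not called (log2 fold change 0.12, limma's adjusted p = 0.265). After the length and GC correction, limma's adjusted p for *Sulf2* was 0.0476. *Hmgb1*, which can bind CXCL12, and *Mif*, an alternative CXCR4 ligand, changed by -0.25 and -0.27. The call of *Mif* was lost after that correction (limma's adjusted p = 0.904), and those of *Hs2st1*, *Ndst1* and *Sdc3* were lost in at least 1 fit without a library.

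Of 15 tested G protein genes, 0 rose and 3 fell by limma, a share of 20% near the 17.3% of all genes. *Gnai2*, an alpha subunit through which CXCR4 signals, had 1752 and 1731 normalized counts in control and 1315 and 1213 in *Dnmt1* KO libraries (log2 fold change -0.46, adjusted p = 0.000116 by limma). It was also called with each library left out. *Gng5* and *Gnb2*, a gamma and a beta subunit, had log2 fold changes of -0.77 and -0.22 and were not called in every such fit.

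The receptor kinases and RGS proteins, which end G protein signalling, had 9 of 18 tested called by limma, 3 higher and 6 lower. This share of 50% stood against the 17.3% of all genes. DESeq2 called 2 genes of this list, and 9.17% of all the genes it tested. Of the 9, limma called 4 without control replicate 1, 3 without control replicate 2 and 6 without *Dnmt1* KO replicate 2. *Grk5*, a kinase that marks receptors for arrestin binding, rose by 0.92 on the log2 scale, from 62.6 and 119 to 185 and 145 normalized counts. *Rgs17* and *Rgs8* rose by 0.67 and 0.30. *Rgs5*, a gene also known from pericytes, fell from 94.9 and 117 to 57.2 and 41.5 (log2 fold change -1.10), *Rgs19* by 0.85 and *Rgs4* by 0.72. *Rgs2*, *Rgs16* and *Rgs20* were the other 3 genes that fell. The calls of *Rgs17* and *Rgs16* were lost after the length and GC correction (limma's adjusted p = 0.249 and 0.0641). Of these 9, *Rgs2* alone was called with each library left out (log2 fold change -0.70, limma's adjusted p = 0.00147).

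Of 20 receptor endocytosis genes tested, 3 were higher and 1 lower, a share of 20% near the 17.3% of all genes. *Dnm3*, a dynamin that pinches off vesicles, rose from 1058 and 1001 to 1314 and 1452 normalized counts (log2 fold change 0.42) and was the 1 gene of the 4 called with each library left out. *Ap2a2* and *Cltc*, parts of the clathrin coat machinery, rose by 0.24 and 0.16, and *Clta*, a clathrin light chain, fell by 0.18. The call of *Clta* was lost after the length and GC correction (limma's adjusted p = 0.0746).

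Of 31 tested effectors, 3 rose and 2 fell, a share of 16.1% near the 17.3% of all genes. *Dock1*, an exchange factor that activates Rac, fell most, from 227 and 232 to 99.6 and 78.7 normalized counts (-1.36 on the log2 scale, adjusted p = 2.72e-05 by limma). *Elmo1*, whose product acts together with DOCK proteins, moved the other way, from 594 and 620 to 806 and 810 (log2 fold change 0.41). *Prex1*, another Rac exchange factor, fell by 0.60. *Rock1* and *Rock2*, kinases that drive actomyosin contraction, rose by 0.45 and 0.24. The call of *Rock2* was lost after the length and GC correction (limma's adjusted p = 0.283). *Dock1*, *Elmo1*, *Prex1* and *Rock1* were called with each library left out, and *Rock2* was not.

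Of 10 transcription factor genes of interneurons from the medial ganglionic eminence, 9 rose, each also with every library left out in turn. This share of 90% by limma stood against the 17.3% of all genes. *Maf* and *Sox6* changed most, by 1.12 and 0.80 on the log2 scale. *Nkx2-1*, which marks the progenitors of these cells and is switched off in those bound for the cortex, had 369 and 346 normalized counts in control and 353 and 346 in *Dnmt1* KO libraries and was not called (log2 fold change -0.030).

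For each of the 6 genes, the most similar patterns over the 4 libraries were sought among 8418 genes that averaged 100 or more normalized counts, by the root mean square distance of centred log2 values. The closest to *Ackr3* were *Rph3a* (distance 0.015), *Wnt7a* (0.026) and *Dlgap1* (0.030). *Cxcr4* was closest to *E230020D15Rik*, *Scn9a* and *Tmem132c*, at distances of 0.029 to 0.035. *Ttyh1*, with 510 and 469 normalized counts in control and 227 and 282 in *Dnmt1* KO libraries, followed *Cxcl14* at 0.016, ahead of *Sema5a* and *Mdk*. The closest genes were *Mdh1*, *Rpl11* and *Gpi1* for *Cxcl12*, *Dnajb14*, *Skic3* and *Pcmtd1* for *Arrb1*, and *Dnajc10*, *Chmp2a* and *Nifk* for *Arrb2*. With 4 libraries, many genes share a pattern, and these distances are descriptions.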

How the data were processed

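RNA sequencing data of 4 libraries were analysed, with groups and replicate numbers taken from the labels. The authors used Trim Galore for trimming, STAR with GRCm39 for alignment, Salmon for gene quantification and DESeq2 for normalization. The deposited signal is a normalized count, that is, whole reads scaled by each library's size factor, as checked on all 89965 values above 0 (100% whole to within 0.0001 of a read). Libraries held 6970247 to 8376711 recovered reads. Replicate libraries differed by more than counting noise (chi-square 2.71 and 2.31 per degree of freedom).

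Values were log2-transformed after adding 1, and genes averaging at least 10 normalized counts were fitted by genotype in limma 3.58.1 (R 4.3.3; eBayes with a variance trend). Benjamini-Hochberg adjusted p below 0.05 made a call. Fold changes on this scale understate changes of low genes. Recovered reads were tested with edgeR 4.0.16, DESeq2 1.42.0 and limma-voom. Other alternatives were pseudocounts of 0.5 and 10, filters at 1 and 50, quantile normalization, TMM factors, no variance trend in limma, a spline of 5 degrees of freedom that corrects each library for canonical transcript length and GC content, a replicate block, and each library left out, where limma pools the spread and a lone library is assumed to vary like the others. Ratios were compared with exact permutation tests in Python 3.11.15 with scipy 1.17.1. The steps were tested on simulated data.

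The genes and lists were chosen with earlier results of these data known. Named were the 6 genes, in each list up to 3 called genes per direction with a mean of at least 50, the most abundant further ligand and receptor, the most abundant marker of a list and the 3 nearest patterns per gene. *Vip*, *Gm44914*, *Gm34172*, *Gm72715*, *Lhx6*, *Satb1*, *Dlx5*, *Sulf2*, *Rgs2*, *Rgs16*, *Rgs20* and *Nkx2-1* fall outside this rule and were named after their values were seen. A gene that falls under the rule is not reported here.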

Additional observations from a re-analysis of the deposited data

How the results depend on the processing

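*Cxcl12* and *Arrb2* kept their direction and stayed uncalled in all 16 alternatives, with log2 fold changes of -0.24 to -0.12 and -0.34 to -0.13. Limma without the variance trend called 0 genes (3339 at an unadjusted p below 0.05) and left *Cxcr4* at 0.58, *Ackr3* at 0.69, *Cxcl14* at -0.94 and *Arrb1* at 0.40 uncalled, the log2 fold changes themselves being unchanged. DESeq2 called 1176 genes, with *Cxcr4* at 0.58 and *Cxcl14* at -0.97 uncalled, and quantile normalization gave *Cxcl14* -0.84 with limma's adjusted p of 0.0648. With each library left out, the number of genes called ranged from 1525 to 2205, *Cxcr4* from 0.45 to 0.70, *Cxcl14* from -1.10 to -0.79 and the log2 difference of the *Ackr3* to *Cxcr4* ratio from -0.060 to 0.29, its sign changing without control replicate 2. *Cxcl14* was not tested at a mean of at least 50. *Dnmt1* turned to 0.016 after the length and GC correction. Of 288 counts of called list members under the alternatives, 245 stayed within 1.5 times the main count and 43 did not. Apart from the variance model and the fits without 1 library, where fewer samples remain, the cause of lost calls was not tested.

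Control and *Dnmt1* KO libraries carry the same replicate numbers, and deviations of same-numbered libraries correlated at -0.085 over 14323 genes. With so few libraries per genotype, this value cannot show whether same-numbered libraries were prepared together. With a replicate block, limma called 2957 genes and the same 4 of the 6 genes, *Cxcr4* with an adjusted p of 0.0169. Depth limits the ligands most, since *Cxcl14* rests on 23 to 59 reads a library.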

Other observations

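*Dtx3l*, whose product acts with other ubiquitin ligases on CXCR4 sorting, had 42.1 and 17.4 normalized counts in control and 14.8 and 2.19 in *Dnmt1* KO libraries. With a log2 fold change of -1.99 it did not pass the test (limma's adjusted p = 0.0514). *Grk3*, a receptor kinase, had 113 and 66.4 in control and 138 and 133 in *Dnmt1* KO libraries (log2 fold change 0.64, limma's adjusted p = 0.0536). *Penk*, the precursor of enkephalins, which ACKR3 can take up, had 33.1 and 34.7 against 32.6 and 22.9 (log2 fold change -0.30, limma's adjusted p = 0.584). *Cx3cr1*, the fractalkine receptor of microglia, was listed at 10.7 and 34.7 in control and at 6.90 and 8.74 in *Dnmt1* KO libraries (log2 fold change -1.22, limma's adjusted p = 0.154). These 4 genes were chosen after their values were seen.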
